A study of Mus musculus with 36 samples.

Results

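Kidney medulla of Balb/c mice taken 24 h after an injection of 140 MBq of 177Lu-octreotate was compared with kidney medulla taken 24 h after 1.3 MBq, the highest against the lowest activity injected. The 6 arrays were chosen by their titles, 3 arrays at 140 MBq and 3 at 1.3 MBq, of 36 arrays in the series. The whole series holds cortex and medulla at 0, 1.3, 3.6, 14, 45 and 140 MBq, with 3 Illumina bead arrays for each tissue and activity, and measured messenger RNA in total RNA from frozen tissue. Both groups compared received the labelled peptide, so the comparison shows what differed between the activities and not what followed an injection as such. The untreated arrays entered no test here and are quoted only as values. Whether the 3 arrays of a group stand for 3 mice is not stated in the labels, and the p-values therefore speak only of the spread among these samples, which may be technical.

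177Lu-octreotate is a somatostatin analogue that carries lutetium-177, an isotope that emits beta particles, and is used against neuroendocrine tumours. Radiolabelled peptides of this kind pass the glomerular filter and are taken up again by proximal tubule cells, where they are retained, so the kidney receives a radiation dose. The medulla holds the loops of Henle, the collecting ducts and the straight vessels that concentrate the urine, and its outer stripe also holds the straight parts of proximal tubules. In irradiated cells DNA breaks stabilise the transcription factor p53, which switches on genes of cell cycle arrest, apoptosis and repair, and also Mdm2, the ubiquitin ligase that degrades p53.

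Levels are given as log2 of the background-corrected and normalised bead signal, and a difference of 1 on this scale is a 2-fold change. The median uncorrected signal was 189 to 205 on the 140 MBq arrays and 176 to 215 on the 1.3 MBq arrays, with 50.2 to 51.2% and 50.7 to 51.8% of 25697 probes detected (detection p under 0.05). The number of arrays limits the precision. Set against the 6 cortex arrays of the same activities, the 6 medulla arrays had more of the inner medullary urea transporter Slc14a2, at 10.18 to 11.39 against 4.80 to 9.59 in cortex, and on average 1.28 more of the water channel Aqp2. Proximal tubule genes were nevertheless detected on all 6 medulla arrays. The phosphate transporter Slc34a1 lay at 14.67 to 14.91 in medulla, against 14.86 to 15.04 in cortex. Of the other medulla genes checked, Umod, Slc12a1 and Aqp3 were on average 0.34, 0.71 and 0.9 higher in medulla. Of the other cortex genes checked, Slc5a2, Slc22a6 and Slc6a19 differed on average by -0.83, -0.65 and -0.63. Kap, also checked as a cortex gene, went the other way, at 13.27 to 14.68 in medulla against 7.62 to 14.18 in cortex. Sstr2, the main receptor of octreotate, was detected on 0 of 15 treated medulla arrays. Megalin, the uptake receptor encoded by Lrp2, had signals of 5.84, 5.79 and 6.23 at 140 MBq, against 6.21, 6.39 and 6.36 at 1.3 MBq (adjusted p = 0.604).

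Some genes of a list of p53 targets rose at 140 MBq, and 1 of them, Cdkn1a, had the largest rise among the genes that passed. The list was chosen with earlier results of these data known, so it describes the differences and does not test them. It holds 15 of the 73 genes that rose. Of 10696 genes tested, 101 passed an adjusted p under 0.05 (0.944%), of which 73 rose (0.682%) and 28 fell (0.262%) at 140 MBq. The risen genes had a median difference of 1.24 and 47 of them rose at least 2-fold, whereas the fallen genes had a median of -0.87 and 11 of them fell at least 2-fold. Over all genes the median difference was 0.01. The 3 arrays at 140 MBq lay wholly above or below the 3 at 1.3 MBq for all 101 genes, as they did for 19.1% of all genes tested, 11.1% lying higher and 7.99% lower. The count moved with single arrays: it was 52, 75 and 60 without array 1, 2 and 3 of the 140 MBq group, and 58, 50 and 52 without array 1, 2 and 3 of the 1.3 MBq group. A fit of the 6 arrays alone called 46 genes.

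**Figure D1:**
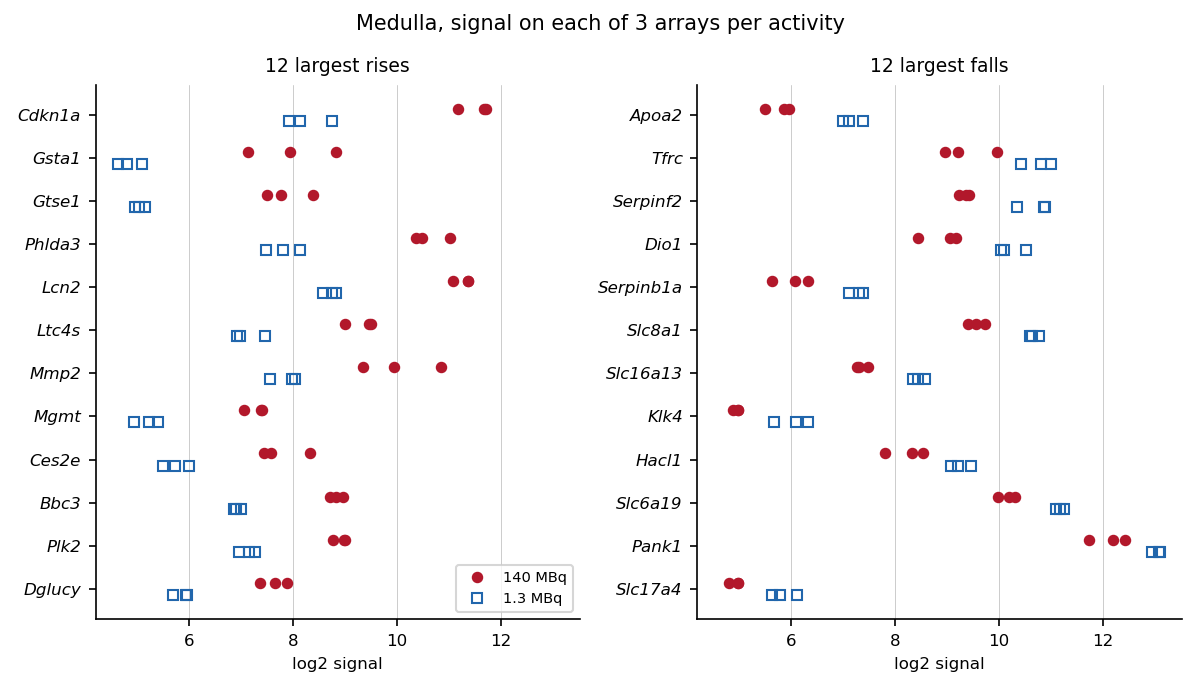
Log2 signal (horizontal axis) of the 12 named genes with the largest rises (left) and the 12 with the largest falls (right) in medulla, with 1 point per array, filled for 140 MBq and open for 1.3 MBq. In each row the 3 filled points do not overlap the 3 open points, and the widest gap is that of Cdkn1a, between 11.18 at 140 MBq and 8.74 at 1.3 MBq.

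The largest rise was that of Cdkn1a, the gene of the cell cycle inhibitor p21. Its signals were 11.68, 11.18 and 11.71 at 140 MBq, against 8.74, 7.92 and 8.14 at 1.3 MBq, a difference of 3.26 ± 0.27 (SE, 9.55-fold, adjusted p = 9.79e-05). The other Cdkn1a probes gave 2.83 and 3.70. On the untreated arrays Cdkn1a stood at 8.68, 9.06 and 7.67, a range that took in all 3 of the 1.3 MBq arrays. In the list of p53 targets 31 members were tested, of which 15 rose and 0 fell, beside 0.682% and 0.262% of all genes. The median difference was 1.09 beside 0.01 over all genes. The members of the list were chosen with earlier results of these data known, so the count and the median describe the list and do not test it. The mean log2 level of the 31 members was 9.35 to 9.44 on the 140 MBq arrays and 8.29 to 8.37 on the 1.3 MBq arrays. The groups are far apart on this measure, and the untreated arrays, at 8.27 to 8.41, lay with the 1.3 MBq arrays. The count of risen members stayed between 14 and 16 when any 1 of the 6 arrays was left out.

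Cdkn1a and Mdm2 are the arrest gene and the feedback gene of the p53 pathway. The 250 bases before 1 transcript start of each are shown because both rose and both hold matches to the p53 half-site. They come from RefSeq (GRCm38.p6), chr17:29090729-29090978 on the plus strand for Cdkn1a and chr10:117710759-117711008 on the minus strand for Mdm2. Capitals mark each match to the 10-letter p53 half-site, which reads the same on both strands.
Cdkn1a: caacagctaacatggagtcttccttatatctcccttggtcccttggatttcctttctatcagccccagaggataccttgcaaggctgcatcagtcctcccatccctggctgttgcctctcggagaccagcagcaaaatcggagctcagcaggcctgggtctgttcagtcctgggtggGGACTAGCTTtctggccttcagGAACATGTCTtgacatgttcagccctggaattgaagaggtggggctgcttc
Mdm2: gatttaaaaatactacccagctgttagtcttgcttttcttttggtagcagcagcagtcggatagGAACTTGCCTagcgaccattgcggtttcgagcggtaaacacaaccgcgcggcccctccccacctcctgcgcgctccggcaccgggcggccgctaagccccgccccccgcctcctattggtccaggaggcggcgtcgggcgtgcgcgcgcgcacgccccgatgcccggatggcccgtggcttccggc
In Cdkn1a the matches begin 73 and 51 bases before the start, and in Mdm2 the match begins 186 bases before it. Of the 2 Cdkn1a promoters scanned only 1 holds matches, and it is the one shown. Such a match occurs in 2341 of 32851 promoters of the table (7.13%), and 2 or more in 85 (0.259%). Among list genes with a promoter in the table, 4 of 14 that rose hold a match (Cdkn1a, Mdm2, Ccng1 and Polk), as do 3 of 9 that did not pass. These counts take any promoter of a gene, so they cannot be set directly against the share of single promoters. A match is a run of letters and does not show binding, and functional sites are also known to lie outside this window.

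Further arrest and signalling genes rose with Cdkn1a. Gtse1, which restrains p53 in the G2 phase, had 7.77, 7.50 and 8.38 at 140 MBq, against 5.03, 5.14 and 4.95 at 1.3 MBq, where it was detected on none of the 3 arrays. It was at least 4.81-fold higher (adjusted p = 0.000172), a bound that sets the 1.3 MBq arrays at their detection limit. Its second probe, likewise undetected on all 1.3 MBq arrays, gave a smaller difference of 1.35 beside 2.84 for the main probe (limma, adjusted p = 0.0151). Phlda3, an inhibitor of Akt signalling, had 10.48, 10.36 and 11.01 at 140 MBq, against 8.13, 7.80 and 7.47 at 1.3 MBq (2.82 ± 0.32, adjusted p = 0.000417). The stress-induced kinase Plk2 had 8.77, 8.98 and 8.99, against 6.95, 7.27 and 7.14 (1.79 ± 0.16, adjusted p = 0.000105). For each of these genes the lowest 140 MBq array stood more than 1 log2 unit above the highest 1.3 MBq array. Ccng1, which encodes cyclin G1, was already abundant and rose by 1.37 ± 0.19, with 12.91, 13.84 and 13.19 at 140 MBq, against 11.95, 11.87 and 12.01 at 1.3 MBq, a call lost in the fit of the 6 arrays alone (adjusted p = 0.0629). Mdm2 had 11.62, 11.74 and 12.01 at 140 MBq, against 10.49, 10.25 and 10.40 at 1.3 MBq (1.41 ± 0.13, adjusted p = 0.000123). A second Mdm2 probe gave 1.40, but another, detected on 2 of the 3 arrays at 1.3 MBq, gave 0.19 (adjusted p = 0.661).

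Genes of apoptosis, repair and metabolism made up the remaining p53 targets that rose. Bbc3, which encodes the cell death protein PUMA, had 8.82, 8.70 and 8.95 at 140 MBq, against 6.89, 6.99 and 6.86 at 1.3 MBq (1.91 ± 0.17, adjusted p = 0.000105). Its second probe was not detected on any of the 6 arrays. Apaf1, the scaffold of the apoptosome, rose by 1.49 ± 0.16. Of the repair genes in the list, Mgmt, which removes alkyl groups from guanine, had 7.06, 7.40 and 7.39 at 140 MBq, against 4.94, 5.40 and 5.23 at 1.3 MBq, where no array detected it, and was at least 3.18-fold higher (adjusted p = 0.000172). Polk, a DNA polymerase that copies past damaged bases, rose by 1.14 ± 0.15. The epoxide hydrolase Ephx1 had 12.15, 12.41 and 12.57 at 140 MBq, against 10.70, 10.78 and 11.09 at 1.3 MBq (1.52 ± 0.15, adjusted p = 0.000172). Dglucy, a D-glutamate cyclase, rose by 1.77 ± 0.20, the carboxylesterase Ces2e by 2.04 ± 0.31, and Sesn2, which restrains mTORC1, by 1.27 ± 0.17. A second Sesn2 probe was undetected on all 1.3 MBq arrays and did not pass (adjusted p = 0.0693). The RNA-binding protein gene Zmat3 rose by 1.09 ± 0.18, a call lost without the first 140 MBq array or without the third 1.3 MBq array (0.97 to 1.30 over single arrays left out, adjusted p up to 0.0524) and in the fit of the 6 arrays alone. Apaf1, Polk, Ccng1 and Zmat3 were named after their values were seen.

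The response of the list was not uniform. Of the 16 tested p53 targets that did not pass, 11 were higher and 5 lower. Trp53inp1, a p53 cofactor, had 10.05, 10.32 and 10.16 at 140 MBq, against a wide spread of 7.81, 8.55 and 9.27 at 1.3 MBq (1.64 ± 0.47, adjusted p = 0.147). The death receptor gene Fas had 9.24, 9.66 and 9.49, against 9.05, 8.47 and 8.87 (0.67 ± 0.15, adjusted p = 0.0597). Both are named after their values were seen, and in both the groups do not overlap. In a separate list of DNA repair genes 1 of 22 rose and 0 fell, beside 0.682% and 0.262% of all genes. In the list 3 had an unadjusted p under 0.05 (limma), all higher, and the median was 0.10. The gene that rose was Ercc5, an endonuclease of nucleotide excision repair, with 10.39, 10.63 and 10.86 at 140 MBq, against 10, 10.03 and 9.78 at 1.3 MBq (0.69 ± 0.13, adjusted p = 0.0245), and its second probe gave 0.61. That call was lost without any 1 of the 6 arrays other than the first 140 MBq array (0.57 to 0.81, adjusted p up to 0.113). In the list of cell cycle and proliferation genes 0 of 20 passed (limma, 2 higher and 1 lower at an unadjusted p under 0.05), and the list's median was 0.10.

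**Figure D2:**
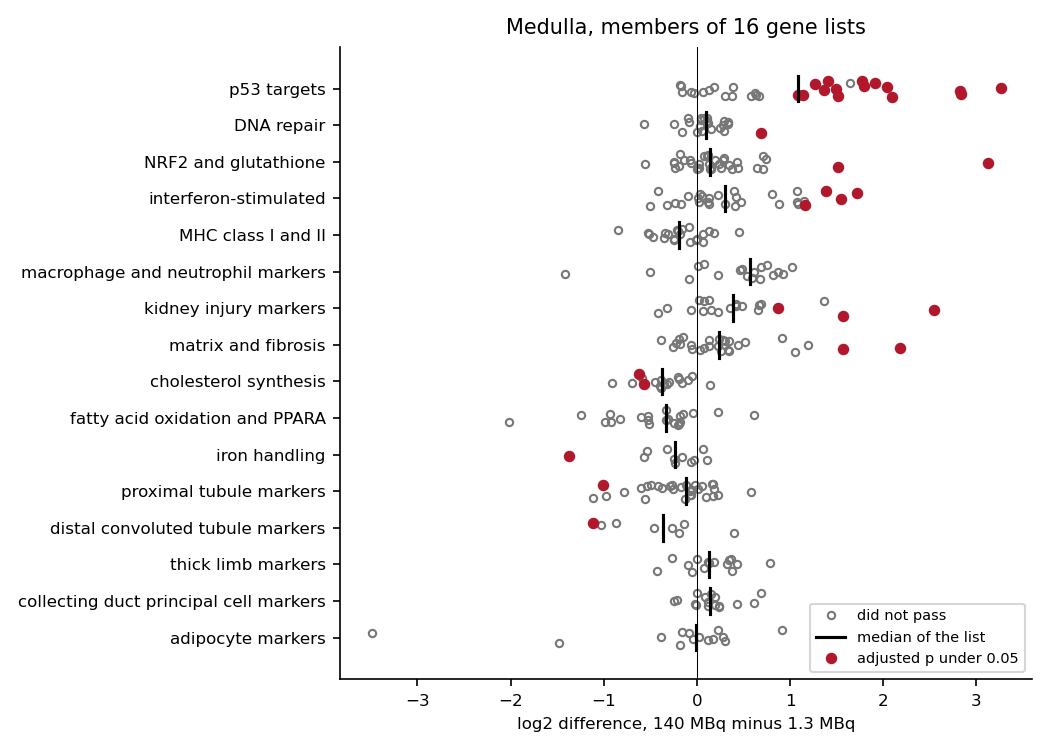
Log2 difference in medulla, 140 MBq minus 1.3 MBq (horizontal axis), of each tested member of 16 gene lists (rows), with filled points for an adjusted p under 0.05, open points for members that did not pass, and a black bar at the median of the list. The p53 targets reach 3.26 and have their median at 1.09, while the other medians shown lie between -0.37 and 0.57.

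Several of the largest rises lay outside the p53 list. Gsta1, a glutathione transferase with close relatives on the array, had 8.82, 7.93 and 7.13 at 140 MBq, against 4.62, 4.81 and 5.09 at 1.3 MBq, and no 1.3 MBq array detected it. It was at least 5.09-fold higher (adjusted p = 0.00568), and its spread of 0.85 (SD, n = 3) at 140 MBq was among the widest of the named genes. Ltc4s, the leukotriene C4 synthase, had 9.49, 9.0 and 9.46 at 140 MBq, against 7.45, 6.97 and 6.92 at 1.3 MBq (2.20 ± 0.23, adjusted p = 0.000193). Mmp2, a matrix metalloproteinase that degrades type IV collagen, had 9.94, 9.35 and 10.84, against 7.98, 7.56 and 8.04 (2.18 ± 0.35, adjusted p = 0.00843). In the list of NRF2 and glutathione genes, the antioxidant programme that Gsta1 belongs to, 2 of 35 rose, Gsta1 and Ephx1, and 0 fell. Of all genes 0.682% rose and 0.262% fell. The median of the list was 0.14. The glutathione transferase Gsta3 had 13.02, 12.78 and 12.76 at 140 MBq, against 11.72, 12.27 and 12.44 at 1.3 MBq, and did not pass (adjusted p = 0.0682).

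A few kidney injury genes rose at 140 MBq. Of 20 kidney injury markers 3 rose and 0 fell, beside 0.682% and 0.262% of all genes, and the median was 0.39, beside 0.01 over all genes. Lcn2, which encodes the secreted iron-binding protein NGAL, had 11.37, 11.36 and 11.07 at 140 MBq, against 8.75, 8.82 and 8.57 at 1.3 MBq (2.55 ± 0.49, 5.87-fold, adjusted p = 0.0241). The arrays within each group were close to one another, but the 3 untreated arrays spanned both groups at 10.28, 13.72 and 7.86. The galectin gene Lgals3 had 12.69, 12.34 and 12.29, against 11.57, 11.46 and 11.68 (0.87 ± 0.14, adjusted p = 0.00883), with untreated arrays at 12.61, 12.39 and 11.86. Timp1, an inhibitor of metalloproteinases, had 6.63, 6.40 and 7.77 at 140 MBq, against 5.39, 5.13 and 5.56 at 1.3 MBq, was undetected on all 1.3 MBq arrays and was at least 2.49-fold higher (adjusted p = 0.0427). Its untreated arrays again ran wide, at 6.72, 9.98 and 5.01. In the fit of all 36 arrays the calls of Lcn2, Lgals3 and Timp1 were lost. The Timp1 call was lost in 12 of 18 alternatives (0.61 to 1.84, adjusted p up to 0.705). Among these were the authors' normalisation, no background correction, no detection filter and the fits of the 18 medulla arrays and of the 6 arrays alone. The Lcn2 call was lost without any 1 of the 6 arrays (2.48 to 2.65, adjusted p up to 0.0932). The Timp1 call held only without the second 140 MBq array (1.16 to 1.84, adjusted p up to 0.152), and the Lgals3 call was lost without the second 1.3 MBq array (0.74 to 0.94, adjusted p up to 0.0563). In the list of matrix and fibrosis genes 2 of 27 rose, Mmp2 and Timp1, and 0 fell, 19 were higher and 8 lower, and the median was 0.24, or 0.09 without the third 140 MBq array. The Mmp2 call was kept without each single array. The collagen gene Col1a1 had 6.76, 5.98 and 7.50 at 140 MBq, against 5.26, 5.60 and 5.81 at 1.3 MBq (1.19 ± 0.37, adjusted p = 0.181).

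A few interferon-stimulated genes rose at 140 MBq. Of 29 tested members 4 rose and 0 fell, beside 0.682% and 0.262% of all genes. At an unadjusted p under 0.05, 10 were higher (6.75% of all genes were), and the median was 0.30. Isg15, a ubiquitin-like protein induced by interferon, had 8.41, 8.26 and 8.36 at 140 MBq, against 6.61, 6.77 and 6.50 at 1.3 MBq (1.72 ± 0.26, adjusted p = 0.00444), with more than 1 log2 unit between the groups. The antiviral GTPase gene Mx2 had 7.35, 7.20 and 6.65, against 5.68, 5.86 and 5.49 (1.39 ± 0.29, adjusted p = 0.0418). The transcription factor gene Irf7 rose by 1.55 ± 0.34 (adjusted p = 0.0495), and Oasl2 by 1.16 ± 0.25 (adjusted p = 0.0477), although a second Oasl2 probe, detected on 1 of the 6 arrays, gave 0.31. Only Isg15 kept its call without each single array. Irf7 and Oasl2 lost it without any 1 of the 6 arrays (1.38 to 1.70 for Irf7, adjusted p up to 0.197, and 0.96 to 1.29 for Oasl2, adjusted p up to 0.179). Mx2 lost it without any array other than the third 140 MBq array (1.25 to 1.60, adjusted p up to 0.174), so that 1 or 2 members remained called. In a fit that also took in the untreated medulla arrays, whose spread is wide, the Isg15 call was lost too. The untreated arrays had Isg15 at 9.36, 7.95 and 7.07, and the mean level of the list at 8.63 to 10.38, against 8.69 to 8.81 at 140 MBq and 8.10 to 8.46 at 1.3 MBq.

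Markers of macrophages and neutrophils are given beside these genes. Of 18 tested, 15 were higher and 3 lower at 140 MBq, and the median was 0.57. Of these markers 0 passed (limma, 8 higher and 1 lower at an unadjusted p under 0.05, beside 6.75% and 5.77% of all genes). Their mean level was 8.43 to 8.45 on the 140 MBq arrays and 7.78 to 8.37 on the 1.3 MBq arrays. The lysozyme gene Lyz1 had 13.31, 13.48 and 13.08 at 140 MBq, against 12.34, 12.46 and 12.30 at 1.3 MBq (0.92 ± 0.28, adjusted p = 0.166). Tyrobp, a signalling adaptor of myeloid cells, had 6.64, 6.73 and 6.87, against 6.32, 6.31 and 5.84 (adjusted p = 0.254). The neutrophil gene S100a8 went the other way, at 5.90, 7.43 and 6.72, against 9.23, 7.55 and 7.49 (-1.41 ± 0.47, adjusted p = 0.217). The part of these cells in the injury and interferon results was not tested. In bulk tissue, fewer cells of a type and less RNA per cell cannot be told apart. MHC class I and II genes, which interferon also raises, had a median of -0.19 and 0 of 22 passed (limma, 0 higher and 1 lower at an unadjusted p under 0.05). Their mean level on the first 1.3 MBq array, 9.93, exceeded all 140 MBq arrays (8.86 to 9.06), and without that array the median was 0.21.

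**Figure D3:**
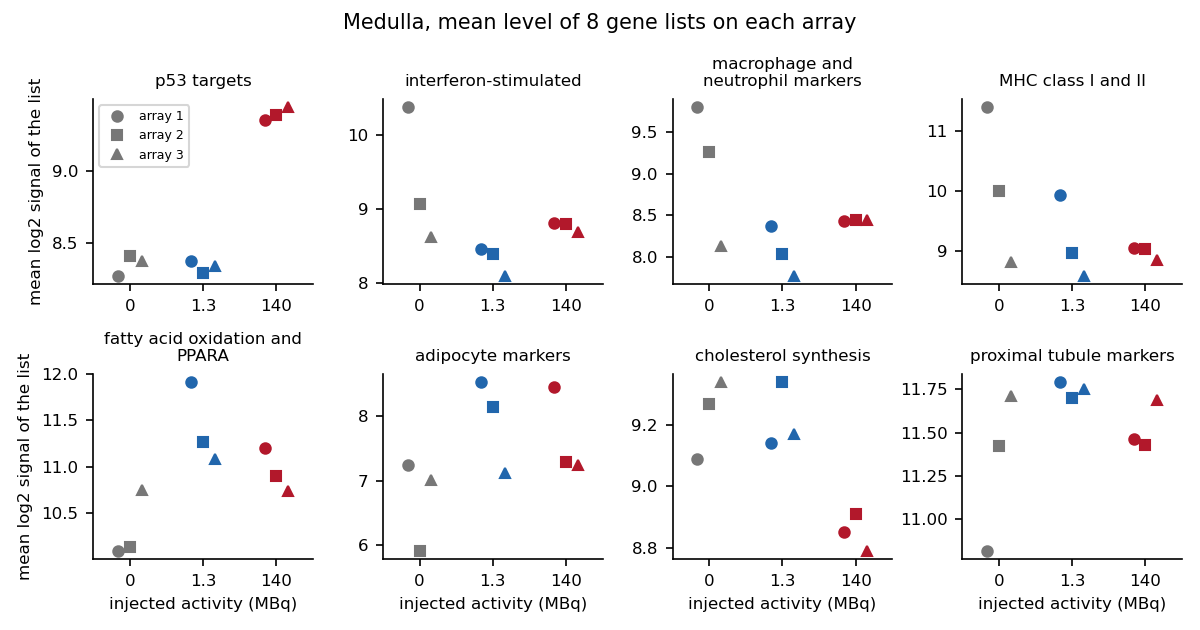
Mean log2 signal of the tested members of 8 gene lists (vertical axes, each with its own scale) on each medulla array at 0, 1.3 and 140 MBq (horizontal axis), with a symbol for each array number. The p53 targets lie at 9.35 to 9.44 at 140 MBq and at 8.29 to 8.37 at 1.3 MBq, whereas the untreated arrays spread widely for interferon-stimulated, macrophage and MHC genes.

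The falls were smaller than the rises. Tfrc, which encodes the transferrin receptor that imports iron, had 9.21, 9.96 and 8.96 at 140 MBq, against 10.43, 11.00 and 10.81 at 1.3 MBq (-1.37 ± 0.27, adjusted p = 0.0269), and its second probe gave -1.39. Of 11 genes of iron handling it was the only one to pass. Its call was lost without the first or the third 140 MBq array or the second or the third 1.3 MBq array (-1.66 to -1.16, adjusted p up to 0.123). Serpinf2, the main inhibitor of plasmin, had 9.24, 9.42 and 9.37 at 140 MBq, against 10.89, 10.34 and 10.86 at 1.3 MBq (-1.35 ± 0.17, adjusted p = 0.000917), and its other probes gave -1.47 and -1.51. The elastase inhibitor gene Serpinb1a had 6.08, 6.32 and 5.64, against 7.31, 7.12 and 7.38 (-1.26 ± 0.17, adjusted p = 0.00201), a call lost in the fit of all 36 arrays (adjusted p = 0.263). Apoa2, an apolipoprotein of high-density lipoproteins, fell by 1.40 to 5.87, 5.96 and 5.49 at 140 MBq, against 7.39, 7.0 and 7.12 at 1.3 MBq (adjusted p = 0.0241). That call was lost without any array other than the second 140 MBq array (-1.49 to -1.26, adjusted p up to 0.111). It was also lost in the fit of all 36 arrays (adjusted p = 0.34). Dio1, the deiodinase that activates thyroid hormone, had 8.44, 9.18 and 9.05, against 10.52, 10.09 and 10.04 (-1.33 ± 0.23, adjusted p = 0.0102), and lost its call without the first array of either group (-1.48 to -1.11, adjusted p up to 0.0577). The Dio1 call was also lost in the fits of the 6 arrays alone, of the 18 medulla arrays and of all 36 arrays (adjusted p up to 0.565). Untreated Dio1 spread over 9.28, 7.97 and 10.04.

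Transporters and enzymes of tubule cells were among the falls. Slc16a13, a monocarboxylate transporter, had 7.30, 7.27 and 7.48 at 140 MBq, against 8.58, 8.45 and 8.35 at 1.3 MBq (-1.11 ± 0.12, adjusted p = 0.000305). Slc8a1, the sodium-calcium exchanger of the distal convoluted tubule, had 9.55, 9.74 and 9.40, against 10.64, 10.78 and 10.60 (-1.11 ± 0.15, adjusted p = 0.00173). Slc6a19, the neutral amino acid transporter of the proximal brush border, had 9.99, 10.20 and 10.30, against 11.10, 11.17 and 11.25 (-1.01 ± 0.17, adjusted p = 0.00883), and lost its call without the first 140 MBq array (adjusted p = 0.0524). It also lost it in fits that took in the untreated medulla arrays (adjusted p = 0.492) or all 36 arrays (adjusted p = 0.797), where untreated Slc6a19 spread over 8.16, 10.89 and 11.09. The 3 genes differ between the groups by more than the range of either. Slc17a4, an organic anion transporter, was detected on every 1.3 MBq array and on none at 140 MBq, and was lower by at least 1.14-fold (adjusted p = 0.0245). It met the detection filter only through the 1.3 MBq arrays, where it was high, so its call carries no weight as a test. The kallikrein-type protease gene Klk4 was likewise detected on no 140 MBq array and was at least 1.30-fold lower (adjusted p = 0.0452). Pank1, which makes the first step of coenzyme A synthesis, had 12.20, 12.43 and 11.73, against 13.10, 12.95 and 13.09 (-0.93 ± 0.20, adjusted p = 0.0425), and Hacl1, a peroxisomal lyase, had 8.33, 7.80 and 8.53, against 9.47, 9.08 and 9.22 (adjusted p = 0.0418). The Slc17a4 call was lost without any 1 of the 140 MBq arrays (adjusted p up to 0.107). With any 1 of the 1.3 MBq arrays left out, Slc17a4 was not tested. The calls of Klk4, Pank1 and Hacl1 were each lost without 5 of the 6 single arrays, with adjusted p up to 0.173, 0.159 and 0.169 in turn. The calls of all 4 genes were also lost in the fit of the 6 arrays alone. The Hacl1 call was lost too in the fits of the 18 medulla arrays and of all 36 arrays (adjusted p up to 0.653 over all alternatives).

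Of the nephron segment markers few passed, in either direction. Of 30 proximal tubule markers 1 fell, Slc6a19, and 0 rose, with 21 lower and 9 higher and a median of -0.12, and their mean level was 11.43 to 11.69 at 140 MBq and 11.70 to 11.79 at 1.3 MBq. The share of proximal tubule in each sample and its part in the falls above were not tested. The organic anion transporters of this segment differed in direction, Slc22a6 at -0.49 ± 0.14 (adjusted p = 0.143) and Slc22a8 at 0.58 ± 0.20 (adjusted p = 0.227). Of 8 distal convoluted tubule markers 1 fell, Slc8a1, and the median was -0.36. Of the 8, 7 were lower, 4 of them at an unadjusted p under 0.05 (5.77% of all genes were). Without the second 140 MBq array 3 of the 8 fell. The magnesium channel gene Trpm6 had 7.14, 7.62 and 6.67 at 140 MBq, against 8.32, 8.43 and 7.76 at 1.3 MBq (adjusted p = 0.0685), and its other probes gave 0.01 and -0.50. Of 10 intercalated cell markers 7 were lower and 3 higher, and the median was -0.32. Of these 0 passed (limma, 0 higher and 5 lower at an unadjusted p under 0.05, beside 6.75% and 5.77% of all genes). Among markers of the segments that define the medulla, 0 of 6 thin limb, 0 of 15 thick limb and 0 of 16 collecting duct principal cell genes passed (limma, with 1, 2 and 1 higher and none lower at an unadjusted p under 0.05), and the medians were 0.32, 0.13 and 0.14. Slc14a2 had 11.06, 11.39 and 10.97 at 140 MBq, against 10.18, 10.98 and 10.88 at 1.3 MBq, a difference within the spread (adjusted p = 0.726), and Aqp2 had 11.22, 11.78 and 11.16, against 10.41, 11.25 and 11.21 (adjusted p = 0.462). In a list of osmolyte and urea handling genes of the medulla 0 of 16 passed, and none had an unadjusted p under 0.05. A p that misses the threshold does not show equal levels.

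Among lipid genes few passed at 140 MBq. Of 18 genes of cholesterol synthesis 2 fell and 0 rose, beside 0.262% and 0.682% of all genes. Of the 18, 17 were lower and 1 higher, and the median was -0.37. Stard4, a carrier of cholesterol within cells, had 10.52, 10.21 and 10.47 at 140 MBq, against 11.00, 11.08 and 11.00 at 1.3 MBq (-0.62 ± 0.13, adjusted p = 0.0374), and Sqle, the squalene epoxidase, had 10.27, 10.36 and 10.05, against 10.82, 10.78 and 10.80 (-0.57 ± 0.12, adjusted p = 0.0401). At most 1 of the pair remained called without any single array (adjusted p up to 0.131 for Stard4 and 0.149 for Sqle), and a second Sqle probe gave -0.33. Of 22 genes of fatty acid oxidation and PPARA, 20 were lower, 11 of them at an unadjusted p under 0.05 (5.77% of all genes were), and 0 passed, with a median of -0.33. Pdk4, which switches cells from glucose to fatty acids, had 9.42, 9.64 and 8.05 at 140 MBq, against 12.02, 10.74 and 10.42 at 1.3 MBq (-2.02 ± 0.57, adjusted p = 0.14). The enzyme gene Ehhadh had 10.74, 10.73 and 11.05, against 12.60, 11.59 and 11.08, so that the first 1.3 MBq array stands apart in both genes. Without that array the list's median was -0.20. An adipocyte gene was highest on that array too. Ucp1, the uncoupling protein of brown fat, had 6.09, 5.42 and 6.43 at 140 MBq, against 11.32, 9.55 and 7.54 at 1.3 MBq, while 7 of 14 adipocyte markers were higher and 7 lower, 0 passed (limma, 0 higher and 1 lower at an unadjusted p under 0.05), and their mean level was 7.24 to 8.46 at 140 MBq and 7.13 to 8.53 at 1.3 MBq. The part of adherent fat in the lipid genes was not tested.

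Clock, stress and mitochondrial genes gave single calls. Ciart, a repressor of the circadian clock, had 8.43, 8.43 and 8.05 at 140 MBq, against 6.95, 7.13 and 6.94 at 1.3 MBq (1.29 ± 0.18, adjusted p = 0.00202), and was the only one of 12 clock repressors and outputs to pass. Per1, another repressor, had 10.89, 10.48 and 10.58, against 10.19, 9.96 and 9.86 (adjusted p = 0.0574). The middle activities had Ciart at means of 8.09, 8.49 and 8.45 for 3.6, 14 and 45 MBq, all near the 140 MBq level. The hours at which the tissues were taken are not given in the sources used here. Ddit4, a stress-induced inhibitor of mTORC1, had 9.76, 9.34 and 9.57 at 140 MBq, against 8.51, 8.99 and 8.61 at 1.3 MBq (0.86 ± 0.19, adjusted p = 0.0477). Cox6b2, known as a testis form of a cytochrome oxidase subunit, had 9.55, 9.14 and 9.41, against 8.60, 8.13 and 7.62 (1.25 ± 0.26, adjusted p = 0.0404), and was the only one of 36 respiratory chain genes to pass. Both of these calls were lost without 5 of the 6 single arrays (adjusted p up to 0.193 for Ddit4 and 0.155 for Cox6b2). Altogether 22 of 36 gene lists held no member that passed.

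The 9 medulla arrays at 3.6, 14 and 45 MBq belong to neither group compared, although the fit behind the calls took part of its spread, its filter and its probe choice from them. A slope over them asks whether the genes also moved with activity in between. Over 10237 genes, 6 passed (0.0586%), and 0 passed with the replicate number as a block. The 6, all rising, were Cdkn1a, Plk2, Mdm2, Ccng1, the exocyst gene Exoc4 and a probe with no gene name, the last 2 outside the naming rule. Cdkn1a averaged 8.02, 9.90 and 10.66 at 3.6, 14 and 45 MBq, a slope of 0.73 ± 0.08 per doubling of activity (adjusted p = 0.0217). Mdm2 averaged 10.35, 10.78 and 11.30 (0.26 ± 0.04, adjusted p = 0.0472), Plk2 averaged 7.21, 7.83 and 8.65 (0.39 ± 0.05, adjusted p = 0.0278) and Ccng1 averaged 12.38, 12.84 and 13.41 (0.28 ± 0.04, adjusted p = 0.0373). For Cdkn1a, Mdm2 and Plk2 the 3.6 MBq mean lay within the range of the 1.3 MBq arrays, and the means at 14 MBq lay above it. With single arrays left out, 0 to 5 genes passed: 0 without any 1 of the 3.6 MBq arrays or the second 45 MBq array, 1 without the second 14 MBq array or the third 45 MBq array, 2 without the first 45 MBq array and 3 without the first 14 MBq array.

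Most of the risen genes had positive slopes over these arrays, and most of the fallen genes negative ones. Of the 73 risen genes 71 were tested, 66 had a positive slope and 44 had a positive slope at an unadjusted p under 0.05, beside 2.08% of all genes. Of the 28 fallen genes 26 were tested, 21 had a negative slope and 3 had one at an unadjusted p under 0.05, beside 2.80% of all genes. Among genes not called, 58.7% had a slope of the same sign as their difference. Bbc3 (0.33 ± 0.05), Gtse1 (0.43 ± 0.08), Phlda3 (0.51 ± 0.10) and Ephx1 (0.23 ± 0.04) had positive slopes that did not pass after adjustment (adjusted p between 0.122 and 0.194). Lcn2 had none, with means of 8.07, 8.22 and 7.85 at 3.6, 14 and 45 MBq (-0.06 ± 0.16), and Slc6a19 had means of 10.97, 10.79 and 11.08 (0.03 ± 0.06). For Lcn2 and Slc6a19 the 140 MBq arrays did not overlap those of the 4 lower injected activities. For Slc6a19 the margin was narrow, at most 10.30 at 140 MBq against 10.37 on the second 14 MBq array. The untreated arrays spanned the 140 MBq arrays, at 10.28, 13.72 and 7.86 for Lcn2 and 8.16, 10.89 and 11.09 for Slc6a19.

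**Figure D4:**
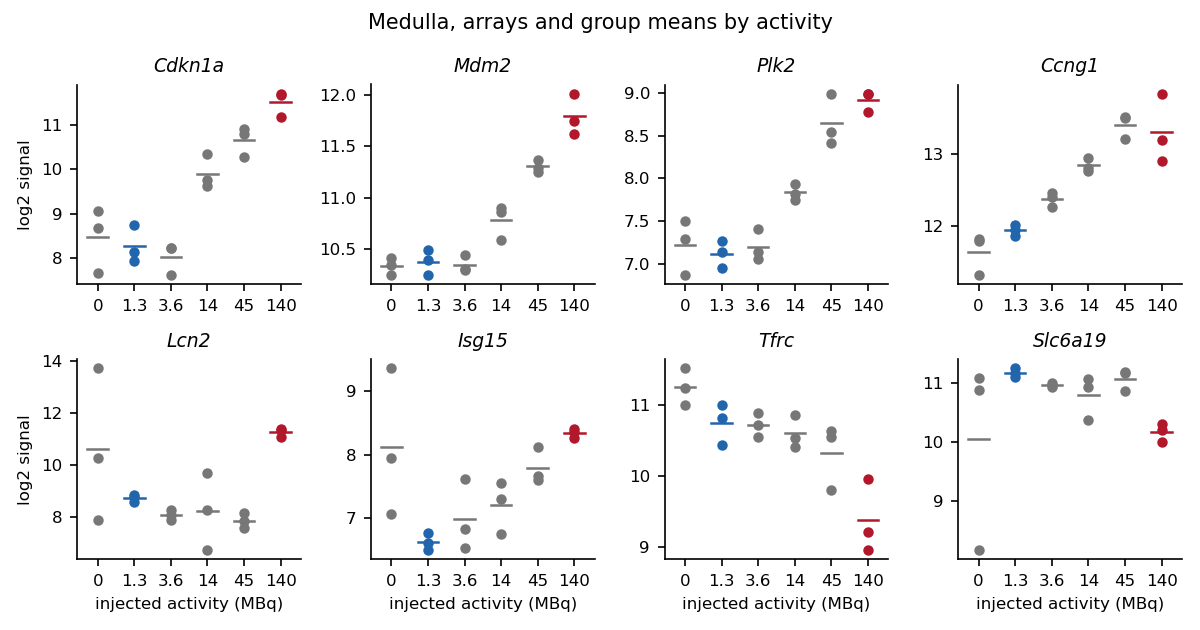
Log2 signal (vertical axes, each with its own scale) of 8 genes on the medulla arrays by injected activity (horizontal axis, MBq, in steps), with 1 point per array and a bar at the mean of 3 arrays. Cdkn1a, Mdm2, Plk2 and Ccng1 climb over 14 and 45 MBq, Lcn2 has means of 8.07, 8.22 and 7.85 at 3.6, 14 and 45 MBq and lies at 11.07 or more at 140 MBq, and the untreated arrays of Lcn2 and Isg15 spread widely.

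Cortex of the same activities gave the same directions. In cortex 151 genes rose (1.34%) and 63 fell (0.559%) of 11261 tested. All 73 genes that rose in medulla were higher and all 28 that fell were lower in cortex, beside 69.7% of 10595 genes not called, and 57 and 14 of them passed there in the same direction. These 71 genes are 70.3% of the medulla calls and 33.2% of the cortex calls. The risen genes had a median difference of 1.24 in medulla and 1.35 in cortex, and the fallen genes -0.87 in medulla and -0.74 in cortex. Cdkn1a differed by 3.26 in medulla and 3.69 in cortex, and Lcn2 by 2.55 in medulla and 2.71 in cortex. Whether the samples of both tissues come from the same mice is not stated in the labels. Arrays of both tissues with the same number deviated together (correlations of 0.215 to 0.353), and the source of this was not tested.

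No gene passed a test of whether the response to the activities differed between the tissues. It passed 0 of 11261 genes (limma, 205 or 1.82% at an unadjusted p under 0.05). The test took the arrays of both tissues as independent, and with the tissues paired by number 0 genes passed as well. Missing the threshold does not show equal responses. The smallest p belonged to Svop, a synaptic vesicle protein gene, which differed by 0.99 in medulla and 2.03 in cortex (-1.04 ± 0.26, adjusted p = 0.999). In medulla Svop was not detected on any 1.3 MBq array and was at least 1.27-fold higher at 140 MBq. It met the detection filter of the medulla fit only through the 140 MBq arrays, where it was high, so its call there carries no weight as a test. With any 1 of the 140 MBq arrays left out it was not tested. Its call was lost without the third 1.3 MBq array (adjusted p = 0.0547) and in the fit of the 6 arrays alone. Plk2 differed by 1.79 in medulla and 2.77 in cortex (-0.98 ± 0.27), Rnf41 by 0.69 and -0.35, Pfdn1 by 0.04 and 0.96, and Narf by -0.35 and 0.49, all with an adjusted p of 0.999. Lypd2, which rose by 1.65 ± 0.27 in medulla (adjusted p = 0.00808) and differed by 0.68 in cortex (adjusted p = 0.457), is named after its values were seen, and its difference between tissues did not pass either.

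**Figure D5:**
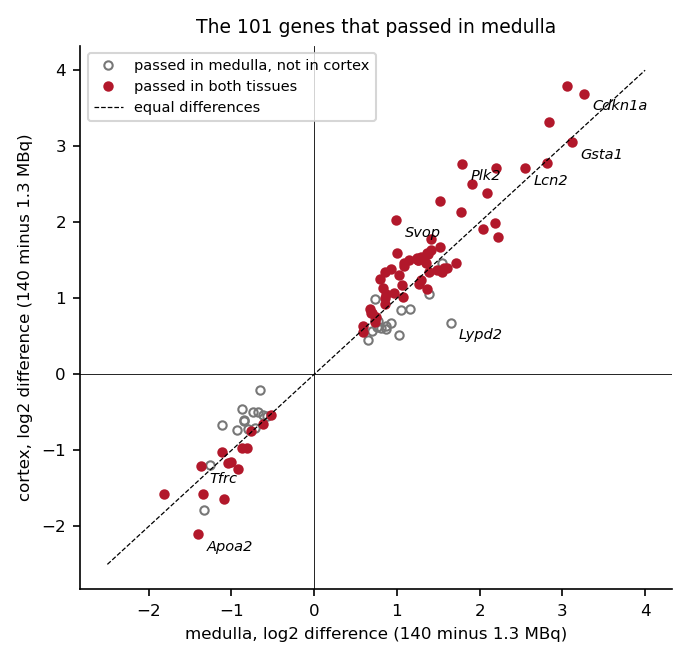
Log2 difference, 140 MBq minus 1.3 MBq, of the 101 genes that passed in medulla, in medulla (horizontal axis) and in cortex (vertical axis), with filled points for genes that passed in both tissues and a dashed line where the differences are equal. Every point is above 0 in both tissues or below 0 in both, with Cdkn1a at 3.26 in medulla and 3.69 in cortex.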

How the data were processed

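Messenger RNA was measured on Illumina bead arrays. The authors deposited linear intensity values per probe, neither background-subtracted nor normalised, beside a detection p-value for each, per the file headers. A second set of deposited intensity values had been normalised; they served as an alternative, and the method is not given in the sources used here. Among 25697 probes, 23974 had 1 gene symbol, 0 had several and 1723 had none, and 0 symbols were updated.

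limma 3.58.1 (neqc, R 4.3.3) inferred negative controls from the detection p-values, added an offset of 16, quantile-normalised the 36 arrays and took log2. Probes entered a fit if detected (p under 0.05) on 3 or more of its arrays, and a gene was represented by its brightest probe on average. 3 fits were made with lmFit and eBayes: 15 treated medulla arrays in 5 groups, 30 treated arrays for the tissue difference, and 9 arrays for the trend. P-values were adjusted with Benjamini-Hochberg over all genes of a fit. Numbers after ± are limma's SE, or SD where written. For a gene that no array of a group detected, the fold is a lower bound: each array of that group was set to the lowest detected signal, or to its own if higher.

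Members and lists were chosen with earlier results of these data known, and list counts are descriptions. The genes named were the 12 largest rises and the 12 largest falls among called genes with a symbol, groups that do not overlap and detection on all 3 arrays of the higher group, up to 4 members of a list by smallest p, the 5 smallest p of the tissue difference, and Cdkn1a, Lrp2, Sstr2 and Cubn, the last not analysed here. Same-numbered arrays of both tissues deviated together at 140 and 1.3 MBq (correlations of 0.215 to 0.353). The labels state no pairing of these arrays, and the source of the correlations was not tested. Alternatives covered background, normalisation, filter, probes, weights, arrays fitted and arrays left out. The tests were tried on simulated data.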

Additional observations from a re-analysis of the deposited data

How the results depend on the processing

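The main comparison called 101 genes. It called 158 on the authors' deposited normalisation, 155 without background correction, 153 with array weights, 64 in a fit with the untreated medulla arrays, 46 in a fit of the 6 arrays alone, 51 in a fit of all 36 arrays and 41 at an adjusted p under 0.01 and 1.5-fold. No filter (85), a stricter filter (128), every probe (115) and normalisation over the 18 medulla arrays (100) stayed within 1.5 times, and leaving out single arrays gave 50 to 75. Same-numbered 140 and 1.3 MBq arrays of medulla had correlations of 0.147, 0.177 and -0.00556. Whether the number stands for more than a label is not stated and was not tested. With the replicate number as a block 91 genes were called. The trend called 6 genes, 11 with every probe, 0 with the replicate block, 0 at the stricter call, and 0 to 5 with single arrays left out. The tissue difference called 0 genes throughout, the pairing of tissues by number as a block included. Of 58 called genes named in the text, 26 kept their call under every alternative run, 31 without each single array, and 0 changed sign. Pfdn1, not called at 0.04, ranged over -0.01 to 0.09 with single arrays left out. The causes were not tested. Slides could not be used as a block, since the columns name none. Genes near background have only bounds, and 3 arrays a group limit the precision.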

Other observations

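The genes given first passed in the main comparison, belong to none of the gene lists and were chosen after their values were seen. Gas6, the ligand of the TAM receptors that clear dying cells, was abundant and rose, with log2 signals of 13.46, 13.54 and 13.85 at 140 MBq, against 12.41, 12.23 and 12.42 at 1.3 MBq (1.26 ± 0.14, adjusted p = 0.000399). Ly6e, a membrane protein that interferon induces, had 11.00, 10.81 and 10.96 at 140 MBq, against 9.59, 9.17 and 9.21 at 1.3 MBq (1.60 ± 0.19, adjusted p = 0.000723), and Ifitm3, an antiviral membrane protein, had 12.79, 13.06 and 13.07, against 12.28, 12.11 and 11.93 (0.87 ± 0.15, adjusted p = 0.0144). Both stood as high on the first untreated array, at 10.84 for Ly6e and 13.69 for Ifitm3. The Ifitm3 call was lost without the second or the third array of either group (0.78 to 0.96, adjusted p up to 0.0786). Aaas, which encodes a nuclear pore protein, rose by 1.35 ± 0.19, the thiamine transporter gene Slc19a2 by 1.06 ± 0.17 and the integrin gene Itgb4 by 1.03 ± 0.17, each without losing its call when single arrays were left out. The Itgb4 call was lost in the fits of the 6 arrays alone (adjusted p = 0.0612) and of all 36 arrays (adjusted p = 0.0733), and the Ly6e call in that of all 36 (adjusted p = 0.0668). The drug efflux pump gene Abcb1b had 11.11, 10.73 and 10.51 at 140 MBq, against 9.31, 9.11 and 9.32 at 1.3 MBq (1.54 ± 0.32, adjusted p = 0.0374), a call lost without any 1 of the 6 arrays (adjusted p up to 0.156).

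The next genes were also chosen after their values were seen. Siva1, a pro-apoptotic gene, rose by 0.80 ± 0.15 (adjusted p = 0.0212), and Bid, which links death receptors to mitochondria, fell by 0.85 to 8.90, 8.72 and 8.57 at 140 MBq, against 9.84, 9.37 and 9.52 at 1.3 MBq (adjusted p = 0.0352). Both calls were lost without any 1 of the 6 arrays (adjusted p up to 0.0958 for Siva1 and 0.154 for Bid). The tight junction gene Cldn2 of the proximal tubule fell by 0.52 (adjusted p = 0.0374), and Pcx, the pyruvate carboxylase, by 0.81 (adjusted p = 0.0269); leaving out any 1 array ended the Cldn2 call, and any but the first 140 MBq array the Pcx call (adjusted p up to 0.144 and 0.127). Of the 101 called genes 68 are in no list, and 5 of these are probes with no gene name. The probe with the widest difference among them had 10.60, 9.59 and 10.60 at 140 MBq, against 7.93, 6.56 and 7.14 at 1.3 MBq (3.06 ± 0.32, adjusted p = 0.000209), and 8.38, 10.49 and 7.03 on the untreated arrays.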
